A study of Rattus norvegicus with 9 samples.

Results

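The probes described here are the manufacturer's catalogue oligonucleotides that were far brighter on the later of the 2 scan days of a rat cerebral cortex microarray study. Of 30367 catalogue probes, 21683 were marked well above background on all 5 arrays scanned on the later day. Of these, 1403 (6.47%) had a mean log2 signal at least 3, or 8-fold, higher over those 5 arrays than over the 4 arrays of the earlier day, and they are the members. With normexp background correction of the raw signals, the same limits left 365 probes, 361 of them shared. Signals were log2 values minus the 75th percentile of their own array, so a level of 0 is the 75th percentile and a difference of 1 is 2-fold. The measured difference between the days chose the members, so it is given as a description, with no test. By the same limits, 170 of 4811 custom-design probes (3.53%) on the same arrays would have entered.

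The study compared male Wistar rats after cardiac arrest (CA, 5 rats) with sham-operated rats (4 rats), and 1 array was hybridised per rat. The sample titles call the sham rats blank control, and no anaesthetic dose or current is recorded for them here. In the CA group, pentobarbital (30 mg/kg) was followed by ventricular fibrillation, induced with a 6 V, 50 Hz current for 10 s through needles across the chest. Resuscitation started 8 min later, by chest compression and ventilation, and cortex was assayed 2 h after circulation had returned. All 9 samples are labelled as cerebral cortices, with no age stated. CA replicates 1 and 2 and sham replicates 2, 3 and 4 were scanned on the later day, whereas CA replicates 3, 4 and 5 had been scanned on the earlier day together with sham replicate 1. A scan day is only when the slide was read. The files do not say when tissue was taken or RNA extracted.

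In cardiac arrest the blood supply of the brain stops, and cortical neurons are among the cells that tolerate this least. Restored flow brings oxygen back to tissue whose ion gradients and energy stores have run down. A catalogue probe is a synthetic strand of 60 bases designed to capture the labelled copy of 1 transcript. In bulk tissue, fewer cells of a type and less RNA per cell cannot be told apart. The deposited files pair no member with a gene, so genes are named here only where a probe matched a RefSeq window around an annotated transcript start (rat assembly GRCr8). The labelled tissue could not be checked against cortical marker genes for the same reason.

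The first sequences shown are members with large differences between the days, with high levels on the later day, or with small p-values between CA and sham rats. Each has exactly 1 forward reading frame without a stop codon, and the capitals mark that frame. A frame with a stop codon only at its end counted as closed, so the marked frame need not be the coding one. In A_64_P019966, A_64_P003408 and A_64_P133276 the frame from the first base is open up to its last codon, a stop. In A_64_P033800 that frame has stops only near its end. These examples were chosen after the values were seen.
A_64_P031123: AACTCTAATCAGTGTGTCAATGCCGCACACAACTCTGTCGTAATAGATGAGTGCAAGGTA
A_64_P019966: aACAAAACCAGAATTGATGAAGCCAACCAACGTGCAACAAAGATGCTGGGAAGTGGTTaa
A_64_P033800: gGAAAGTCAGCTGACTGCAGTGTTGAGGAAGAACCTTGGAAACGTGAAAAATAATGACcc
A_64_P127855: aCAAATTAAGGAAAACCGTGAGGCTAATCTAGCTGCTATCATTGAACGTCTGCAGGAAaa
A_64_P003408: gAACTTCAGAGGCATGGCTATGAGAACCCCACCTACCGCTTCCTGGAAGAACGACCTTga
A_42_P687133: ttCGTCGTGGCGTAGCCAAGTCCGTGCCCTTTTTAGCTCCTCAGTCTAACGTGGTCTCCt
A_64_P133276: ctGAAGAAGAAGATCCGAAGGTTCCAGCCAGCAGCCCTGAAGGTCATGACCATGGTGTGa
A_44_P375502: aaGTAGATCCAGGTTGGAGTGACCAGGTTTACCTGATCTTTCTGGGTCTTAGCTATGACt
A_44_P379399: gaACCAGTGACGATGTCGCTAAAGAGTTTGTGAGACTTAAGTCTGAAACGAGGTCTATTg

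The next sequences are members that matched RefSeq start windows, each of which runs from 250 bases before to 50 bases after an annotated start. Capitals mark bases identical to the window. A_64_P136676 lies on the window of Dlg5l12 (chr19:38196619-38196918, plus strand), a protein-coding gene whose symbol marks it as similar to Dlg5, a scaffold protein of cell junctions. A_64_P056427 lies on that of the long non-coding RNA LOC134483312 (chr19:38084409-38084708, plus strand), and A_64_P035238 on that of the long non-coding RNA LOC134483562 (chr19:28839956-28840255, plus strand). A_64_P010748 lies on the window of the protein-coding gene LOC134480537 (chr9:17487732-17488031, plus strand), and A_64_P138944 on that of the protein-coding gene LOC134480474 (chr9:10647218-10647517, minus strand). Each of these probes aligned wholly within the 250 bases before the annotated transcript start. For Dlg5l12 (gene from 38195391 to 38237059) and LOC134480474 (gene from 10631773 to 10815822), the window lies inside the annotated gene. In the order named, they covered window bases 57 to 116, 190 to 249, 1 to 60, 44 to 103 and 88 to 147. A_64_P138944 matched at only 90% identity. Whether the probes capture transcripts of the named genes was not tested, so the names say only which window was matched. These probes are shown because they represent the repeated sequence families described further on.
A_64_P136676: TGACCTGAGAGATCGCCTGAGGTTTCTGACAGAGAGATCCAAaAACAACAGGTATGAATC
A_64_P056427: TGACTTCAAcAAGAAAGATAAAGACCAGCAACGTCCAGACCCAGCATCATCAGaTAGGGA
A_64_P035238: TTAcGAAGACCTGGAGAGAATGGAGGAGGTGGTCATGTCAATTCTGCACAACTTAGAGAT
A_64_P010748: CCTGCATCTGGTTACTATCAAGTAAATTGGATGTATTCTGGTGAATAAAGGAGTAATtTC
A_64_P138944: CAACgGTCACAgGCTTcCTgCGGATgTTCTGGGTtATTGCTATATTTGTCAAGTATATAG

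The member difference between the days had a median of 4.20, quartiles of 3.51 and 5.32, and a highest value of 11.20 (log2). It reached 4 in 793 members, 6 in 219 and 8 in 27. Just inside the limit lay A_64_P082530 at 3.0004, A_64_P136968 at 3.0007 and A_64_P249541 at 3.0019. Just outside it lay A_44_P423566 at 2.9995, A_44_P518673 at 2.9983 and A_43_P11940 at 2.9944. No member lacked a value on any array, so all 1403 are described.

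The 5 later arrays were close to each other over the members. The median member level was 0.84 on CA replicate 1, 0.89 on CA replicate 2, 0.99 on sham replicate 2, 0.85 on sham replicate 3 and 0.99 on sham replicate 4. On the earlier day it was -2.49 on CA replicate 3, -4.76 on CA replicate 4, -4.31 on CA replicate 5 and -4.05 on sham replicate 1. Each group of rats therefore had high arrays and low arrays, split by scan day. The lowest later array lay above the highest earlier array in 1355 members. CA replicate 3, the highest of the earlier arrays, also had the highest limit of detection, -1.63 against -3.07 to -2.39 on the other earlier arrays and -4.30 to -3.89 on the later ones. That limit is the 5th percentile of the probes well above background. The part of this limit in the levels of CA replicate 3 was not tested.

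Many members were measured only on the later day. No earlier array had 612 of the members well above background. A further 323 were detected on 1 array, 162 on 2, 112 on 3 and 194 on all 4. By array, 486 members (34.6%) were well above background on CA replicate 3, 286 (20.4%) on CA replicate 4, 451 (32.1%) on CA replicate 5 and 536 (38.2%) on sham replicate 1. Over all sample probes, 69.3% to 72.4% were well above background on the later arrays and 49.2% to 60% on the earlier ones. Where an earlier signal was not above background, the difference rests on a level that was not measured, and the difference with each signal held at its array's detection limit is the bound. Held in this way, the median difference was 3.14 and 773 members still reached 3.

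The members with the largest differences were bright on the later day, which a difference of this size requires. A_44_P371172 had levels of 5.48 and 5.76 on CA replicates 1 and 2 and of 6.28, 6.42 and 6.79 on sham replicates 2, 3 and 4. Its earlier signals, from -5.71 to -4.00, were not well above background on any array. All 5 later arrays lay far above all 4 earlier ones, by a mean of 11.20, and by at least 8.65 with signals held at the detection limit. Within the later day both CA arrays lay below the sham arrays, by 0.87 in the mean (limma adjusted p = 0.366). A_64_P031123 had 5.41 and 5.90 on the later CA arrays and 5.84, 6.35 and 6.07 on the later sham arrays, with earlier signals not well above background on any array. Its mean difference was 10.96, and at least 8.42 at the detection limit.

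A_64_P019966 had 5.85 and 6.20 on the later CA arrays and 6.79, 6.74 and 7.18 on the later sham arrays. On the earlier day it stood at -0.83 on CA replicate 3, -5.14 on CA replicate 4, -3.35 on CA replicate 5 and -4.41 on sham replicate 1, and 2 of these signals rose well above background. The difference was 9.98. On the later day the CA arrays were both below all 3 sham arrays. A_64_P033800 had 5.58, 6.00, 5.99, 6.36 and 6.17 in the same order of later arrays, with a difference of 9.20. A_64_P127855 had 4.22, 4.57, 4.59, 3.86 and 4.72, with a difference of 8.96 and no earlier array well above background. For both of these probes, the later CA and sham arrays overlapped.

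Among the 25 members with the largest differences, which ran from 8.17 to 11.20, 19 were well above background on no earlier array and 6 on at least 1 of them. Their mean later levels ran from 3.08 to 6.55, and the median over all members was 0.91. On the later arrays none of these 25 fell below 2.56, and on the earlier arrays none rose above -0.79, a separation that follows from how they were picked.

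Most of the 10 members with the highest later levels were detected on the earlier day too, 7 of them on all 4 arrays. A_44_P165732, the brightest, had 8.16 and 6.42 on CA replicates 1 and 2 and 7.00, 7.36 and 8.23 on sham replicates 2, 3 and 4, against -0.44, -0.35 and 0.69 on CA replicates 3, 4 and 5 and 0.80 on sham replicate 1. The later groups overlapped, and the difference between days was 7.26. A_64_P003408 was steadier, with 7.44, 7.32, 7.27, 7.04 and 7.59 on the later arrays and 0.67, 0.53, 0.49 and 0.48 on the earlier ones in the same order. Its values within each day were close together, and CA and sham rats overlapped on the later day.

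A_44_P184465 sat near the limit of the rule, with a difference of 3.00. It had 5.71, 5.95, 5.98, 5.98 and 6.18 on the later arrays and 2.69, 3.09, 3.02 and 3.02 on the earlier ones. Bright members could thus be measured on both days and still differ 8-fold. Over the 194 members well above background on all 9 arrays, the median difference was 3.72, the highest was 7.26 and the median later level was 2.97. Over the 612 that were well above background on no earlier array, the median later level was -0.04.

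One gene with a descriptive name was found outside the repeated families. A_64_P149562 matched Pcp4, which encodes a small calmodulin-binding protein abundant in several kinds of neuron. Its first 36 bases were identical to the end of the Pcp4 start window (chr11:49269936-49270235, plus strand), and the last 24 ran beyond it. The first 30 bases are shown, in capitals because all are identical to the window.
A_64_P149562: AGCATTGCCTTCTGAGCTGTTCTGTGGGAC
The Pcp4 probe had 3.49 and 1.69 on CA replicates 1 and 2 and 2.37, 2.89 and 1.74 on sham replicates 2, 3 and 4. On the earlier day it had -1.48 on CA replicate 3, -4.99 on CA replicate 4, -5.59 on CA replicate 5 and -5.74 on sham replicate 1, with 1 array well above background. Every later array was higher than every earlier one, by a mean of 6.89. CA and sham rats overlapped on the later day, where CA minus sham was 0.25 (limma adjusted p = 0.984).

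The second comparison asked whether the members differed between CA and sham rats within the later day. The rule did not compare the groups, but its means mixed them unequally. The later mean held 2 CA and 3 sham arrays, and the earlier mean 3 CA and 1 sham array. A probe lower after CA thus gained in later minus earlier, so the choice of members favours that direction. The test had 2 CA and 3 sham arrays, and limma was fitted across 29315 probes well above background on at least 2 of them. No member passed an adjusted p of 0.05 in either direction. Over all tested probes, 2 were called higher (0.00682%) and 3 lower (0.0102%). At an unadjusted p under 0.05, 57 members were higher after CA (4.06%, against 4.41% of all tested probes) and 165 lower (11.8%, against 4.12%). With normexp background correction 3 members were called lower, and without CA replicate 2 the number was 2.

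The members lay slightly lower in the CA rats of the later day. The CA mean was below the sham mean in 911 of 1403 members (64.9%), against 49.6% of all tested probes, and above it in 492 (35.1%, against 50.4%). The sets are unlike: the tested probes include 5662 custom probes and needed detection on 2 later arrays, the members on all 5. The unequal mix of groups in the rule also favours lower members, and its part in these shares was not tested. Both CA arrays lay below all 3 sham arrays in 292 members (20.8%, against 12% of all tested probes) and above all 3 in 109 (7.77%, against 11.8%). The CA mean was at least 2-fold lower in 60 members (4.28%, against 1.4%) and at least 2-fold higher in 42 (2.99%, against 2.56%). The median CA minus sham difference was -0.14 over the members, against 0.00 over all tested probes. With all 9 arrays in the model and scan day as a term, it turned to 0.05. That model adds the 3 CA arrays and 1 sham array of the earlier day, where 612 members were well above background on no array.

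The lower median on the later day rested mostly on CA replicate 1. Against the sham mean, the median member lay at -0.23 on CA replicate 1 and at -0.03 on CA replicate 2. Without CA replicate 1 the median difference was therefore -0.03, and without CA replicate 2 it was -0.23. CA replicate 1 was the lowest of the 5 later arrays in 604 members and the highest in 208. CA replicate 2 was the lowest in 296, and sham replicates 2, 3 and 4 in 66, 306 and 131. Members also spread more over these 5 arrays than the tested probes as a whole, members included. The median standard deviation was 0.36, against 0.25 over all tested probes.

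The members with the smallest p-values in the lower direction had tight arrays. A_64_P052795 had -1.79 and -1.62 on CA replicates 1 and 2 and -0.36, -0.36 and -0.33 on sham replicates 2, 3 and 4. The groups did not overlap, and CA minus sham was -1.36 with a standard error of 0.16 (limma adjusted p = 0.108). With all 9 arrays and scan day as a term it turned to 0.08, but on the earlier day only CA replicate 3 had this probe well above background. A_64_P133276 had 1.03 and 0.72 after CA and 2.41, 2.43 and 2.18 in sham rats, a difference of -1.47 with a standard error of 0.19 (limma adjusted p = 0.132). It was the only one of the 10 in this direction that was well above background on all 9 arrays, and on the earlier day it had -0.50, -2.21 and -1.38 on the CA arrays and -1.27 on the sham array, where the groups overlapped.

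A_44_P375502 had -1.87 and -1.88 on the later CA arrays and -0.44, -0.15 and -0.59 on the later sham arrays. Its difference was -1.48 with a standard error of 0.19 (limma adjusted p = 0.132). The difference of largest size among the 10 was that of A_64_P005907, at -1.85. It had -0.11 and 0.60 after CA and 1.89, 2.34 and 2.06 in sham rats. None of these groups overlapped. The remaining 6, which were A_64_P013569, A_64_P008166, A_43_P15448, A_64_P128144, A_44_P550845 and A_44_P398529, lay lower by 1.09 or more on the log2 scale, with adjusted p-values up to 0.204. They did not overlap between the groups either.

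The 10 members with the smallest p-values in the higher direction had mean later levels from -1.57 to 1.05. Those of the 10 in the lower direction were similar, from -1.59 to 1.76. A_44_P980916 had 0.04 and -0.17 on the later CA arrays and -1.09, -1.02 and -1.15 on the later sham arrays. CA minus sham was 1.02 with a standard error of 0.17 (limma adjusted p = 0.176). A_43_P12079 had the largest positive difference, 2.95 with a standard error of 0.61 (limma adjusted p = 0.278). Its levels were 0.91 and 0.09 after CA and -1.30, -2.66 and -3.38 in sham rats, so the sham arrays were also far apart.

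A_44_P379399 had 0.34 and 0.53 after CA and -0.88, -1.08 and -2.04 in sham rats, a difference of 1.77 (limma adjusted p = 0.276). A_64_P005852 had -0.78 and -0.23 after CA and -1.91, -2.01 and -1.68 in sham rats, a difference of 1.36 (limma adjusted p = 0.181). The groups did not overlap for any of the 10, including A_44_P808807, A_44_P269425, A_44_P792784, A_44_P379342, A_64_P071406 and A_64_P003796, whose adjusted p-values reached 0.386. All 20 of these members were picked by their p-values, so the lack of overlap follows in part from the choice.

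Among the brightest members, A_42_P687133 also had separate groups on the later day. It stood at 5.06 and 6.39 on CA replicates 1 and 2 and at 6.98, 7.34 and 7.13 on sham replicates 2, 3 and 4. CA minus sham was -1.42 with a standard error of 0.39 (limma adjusted p = 0.409). On the earlier day it had 1.15, 1.88 and 2.14 on the CA arrays, all above the 1.11 of the sham array. The 194 members well above background on all 9 arrays had a median CA minus sham difference of -0.21 on the later day and of -0.02 on the earlier day. The earlier day had 3 CA arrays and 1 sham array.

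The probe sequences were translated in the 3 forward frames to describe what they could encode. At least 1 frame ran without a stop codon in 1195 members (85.2%), against 86.1% of the other catalogue probes well above background on all later arrays. The reverse complement of the members gave 80.5%, so an open frame of 60 bases says little about coding. A frame that ended in its only stop codon counted as closed, so probes over the end of a coding sequence can be misread. Exactly 1 forward frame was open in 671 members (47.8%, against 45.4%), and none in 208 (14.8%, against 13.9%). Of those 671 stretches, 5 had a mean Kyte-Doolittle hydropathy of 1.6 or more, the range typical of membrane segments (0.745%, against 1.05% of the other probes). None held the spacing of cysteines and histidines of a C2H2 zinc finger, which was found in 0.0326% of the other probes. No protein is named, because no protein sequences were used here.

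Base composition and transcript end signals differed little from those of other probes. The median GC content was 45% in members and in the other probes, with quartiles of 38.3% and 48.3% in members and of 40% and 51.7% in the rest. A polyadenylation hexamer, AATAAA or ATTAAA on the probe strand, occurred in 147 members (10.5%, against 11%). The AU-rich pentamer ATTTA occurred in 92 (6.56%, against 6.07%). Within the set, GC content moved with detection: the median was 41.7% in the members well above background on no earlier array and 45% in those detected on all 4. The part of base composition in the difference between days was not tested. Probes whose names begin with A_64 made up 53.7% of members and 59.5% of the other probes, and those beginning with A_44 31.6% and 27.4%.

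Most members had no match in the start windows. A match of at least 30 aligned bases at 85% identity was found for 31 members (2.21%), against 3.3% of all catalogue probes. Of the 31, 20 had their best match on chromosome 19, 8 on chromosome 9 and 3 elsewhere, including Pcp4. No member matched any of 419 rat miRNA hairpins. Matching probes to each other and to the windows on the same strand placed 92 members in 37 families of similar catalogue probes and left 1311 with no relative. Relatives can capture the same transcripts, so they are not independent measurements.

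The family with the most members lay on 34 start windows, all on chromosome 19, with the windows of LOC134483312, LOC134483562, LOC134483253 and LOC134483558 among them. It held 95 catalogue probes, of which 16 were members. The members' differences between days ran from 3.05 to 3.88. The whole family had a median of 1.63 and a lowest value of -3.98, so the members come from its upper end. The median level of the 16 was 1.34 on CA replicate 1, 0.19 on CA replicate 2, -0.04 on sham replicate 2, -0.24 on sham replicate 3 and 0.17 on sham replicate 4. On the earlier day it was -1.18, -4.99 and -4.56 on CA replicates 3, 4 and 5 and -2.77 on sham replicate 1.

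CA replicate 1 was the highest later array in all 16 of these members, and CA replicate 2 stood close to the sham arrays. The median CA minus sham difference was 0.90, with 1.50 for CA replicate 1 alone and 0.31 for CA replicate 2 alone. All 16 were higher in the mean of the CA rats, as were all 73 catalogue probes of the family well above background on all later arrays. Over all tested probes 50.4% were higher, and relatives are not independent. None of the 16 was called, with limma adjusted p-values from 0.459 to 0.682. A_64_P056427, printed above, had 1.96 on CA replicate 1 and 0.78 on CA replicate 2, against 0.44, 0.32 and 0.77 on the sham arrays, so CA replicate 1 stood apart while CA replicate 2 lay only just above the highest sham array.

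Dlg5l12 belonged to a smaller family on chromosome 19, with 6 start windows, 12 catalogue probes and 2 members. A_64_P136676 on its window had 2.33 on CA replicate 1, 0.98 on CA replicate 2 and 0.74, 0.49 and 0.79 on sham replicates 2, 3 and 4. Again CA replicate 1 stood above the other 4 later arrays. The CA minus sham difference was 0.98 (limma adjusted p = 0.575). A family of 13 catalogue probes with 5 members and no start window had the same shape, with a median of 1.50 for CA replicate 1 against the sham mean and 0.08 for CA replicate 2. A further one, of 9 probes with 5 members, had 1.57 and 0.42.

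Other families went the opposite way on CA replicate 1. A family of 5 catalogue probes, all of them members, had differences between days from 5.41 to 6.09. Its median level was 3.66 on CA replicate 1, 4.37 on CA replicate 2 and 4.14, 3.99 and 4.27 on the sham arrays, so CA replicate 1 was the lowest, as it was for each of the 5 probes. A family of 4 probes, again all members, had differences from 6.30 to 6.98 and a median of -0.58 for CA replicate 1 against the sham mean and 0.15 for CA replicate 2. In both families every catalogue relative on the array passed the rule.

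The 8 members whose best match lay on chromosome 9 all had a lower CA mean on the later day, with differences from -1.25 to -0.19. The CA mean was lower in 64.9% of all members and in 49.6% of all tested probes. In 4 of them, on the windows of LOC134480474 and LOC134480328, both CA arrays lay below all 3 sham arrays. The share was 20.8% over all members and 12% over all tested probes. These 4 probes form 2 families of 2 members each, so they are not 4 independent measurements. The 2 members on the window of LOC134480537 form a further family. A_64_P000895 and A_64_P026419 belong to a family of 219 catalogue probes on 605 start windows. Its main chromosome is chromosome 1, with 73 of those windows. The 8 members are thus not 8 independent measurements of chromosome 9. A_64_P138944, on the window of LOC134480474, had 0.56 and 0.51 on the CA arrays and 1.83, 2.19 and 1.32 on the sham arrays, with no overlap. CA minus sham was -1.25 (limma adjusted p = 0.306). A_64_P010748, on the window of LOC134480537, had 0.36 and 1.02 on the CA arrays and 1.29, 0.85 and 1.11 on the sham arrays. These overlapped, with a difference of -0.39 (limma adjusted p = 0.80). On the earlier day A_64_P010748 was well above background on no array and A_64_P138944 on 2.

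Custom-design probes that shared sequence with members gave a second reading of that sequence. The rule did not use them, but they were read on the same arrays and picked for their likeness to members. For 22 members, 1 of 19 custom probes aligned on the same strand over at least 30 bases. The custom probe's difference between the days had a median of 3.85 over these 22 pairs and reached 3 in 17 of them. Some custom probes paired with more than 1 member, so the pairs are not independent. Among all custom probes well above background on all later arrays, 170 of 4811 (3.53%) reached 3. In 14 pairs the custom probe lay within 1 log2 of the member, and in 2 pairs it was below 0. The member A_64_P042380 differed by 5.41 and its custom partner by 5.04, and CA minus sham on the later day was -0.27 for each. A_44_P508066 differed by 5.39 and its partner by 4.58, with CA minus sham of 0.94 and 0.98. A_64_P160734 was an exception, at 3.92 against -1.91 for its partner, which aligned over 54 bases at 94.4% identity.

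On the opposite strand, 3 members aligned with another probe. A_44_P388959 differed by 3.97 between the days, and the probe aligned with it on the other strand over 58 bases by 2.05. For A_44_P929530, at 3.50, the opposite probe differed by 0.07. For A_43_P13146, at 3.12, it differed by 1.25. The members were chosen for large differences and the opposite probes were not, so the order within these pairs follows from the choice.

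The authors' deposited table of log2 values did not hold the difference between the days. In that table the median over the members was 8.24 on CA replicate 1, 8.28 on CA replicate 2 and 8.55, 8.20 and 8.49 on sham replicates 2, 3 and 4. On the arrays of the earlier day it was 8.36, 8.58 and 8.56 for CA replicates 3, 4 and 5 and 8.37 for sham replicate 1. Later minus earlier had a median of -0.07 over the 1403 members, with quartiles of -0.24 and 0.03, and no member exceeded 1. By contrast, 15 members lay below -3. Applied to the table, the rule found 10 probes, and 0 of them were members. The deposited value minus the scanner value, correlated over all 40351 sample probes, gave Spearman correlations between 0.863 and 0.90 for pairs of later arrays and between -0.917 and -0.492 for pairs of 1 later and 1 earlier array. Pairs of earlier arrays gave 0.393 to 0.948, and 0.934 to 0.948 without CA replicate 3, so that array departed from the other earlier ones. These correlations are across probes, which are not independent. The labels and headers do not say how the table was normalised, and the cause of the discrepancy was not tested.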

How the data were processed

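RNA from the cortex of 9 rats (5 CA, 4 sham) was hybridised in one colour to arrays with 40351 sample probes. Per the file headers, the authors scanned the arrays and made the spot intensity with Agilent Feature Extraction 10.7.1.1 (version from the submitters' processing notes), subtracting background and detrending within each array. The marks for spots well above background, saturated or outlying come from the same software, per the file headers. The deposited table holds log2 values, with the normalisation not stated in the labels or headers.

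From the processed intensity, outlier spots were left out, spots of a probe averaged, log2 taken and each array's 75th percentile subtracted. No sample spot was saturated. CA minus sham was tested on the 2 CA and 3 sham arrays of the later day with limma 3.58.1 (lmFit, eBayes) in R 4.3.3, over 29315 probes well above background on at least 2 of them, with Benjamini-Hochberg adjustment over all of them. The script was tested on simulated data. Replicates are separate rats per the labels, and the number of arrays limits the precision.

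Probes were aligned with blastn 2.17.0 to RefSeq start windows (GRCr8), miRNA hairpins and each other, keeping at least 30 bases and 85% identity. Motifs were searched on the probe strand.

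The members and lists were chosen with earlier results of these data known. Named members are the 25 with the largest difference between days, the 10 with the highest later level, the 10 with the smallest p in each direction, and those nearest the limit. Matched relatives, family examples and overlapping pairs were added after their values were seen. The planned matching of translated probes to proteins, the gene lists and the marker check could not be run, because neither gene names for the probes nor protein sequences were used here. Sequences were to be shown only for members with a protein match; examples with 1 open frame or a start-window match are shown instead. The replicate numbers pair no samples: the groups share 4 numbers, but only number 2 falls on the later day in both.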

Additional observations from a re-analysis of the deposited data

Results flagged for a closer look

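Sham replicate 1, which no other sham array accompanied on the earlier day, stood far from the other 3 sham arrays on 6 of the 14 group comparisons made. Chance sets apart about 1 in 20 groups, but that rate is no yardstick here, because the members were chosen for low values on the earlier day. These values are therefore a description. Its median member level was -4.05, against 0.85 to 0.99, and 536 members were well above background, against 1403. Its median over the 16 members of the chromosome 19 family with the most members was -2.77, against -0.24 to 0.17. The Pcp4 probe stood at -5.74, against 1.74 to 2.89. A_64_P052795 stood at -5.76, against -0.36 to -0.33, and A_44_P980916 at -4.71, against -1.15 to -1.02.

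For 13 of the 52 members named by the rule, all CA arrays lay on one side of all sham arrays on the later day and on the other side on the earlier day. The same held for 123 of all 1403 members (8.77%) and for 5.11% of all tested probes. Of the 52, 20 were picked for small p-values on the later day, so their separation on that day was built in. The earlier day had 1 sham array, most of these earlier signals were not above background, and the difference between the days was not tested. Among the members named for their p-values, CA minus sham was 2.95 on the later day and -1.15 on the earlier day for A_43_P12079, -1.36 and 2.39 for A_64_P052795, and -1.48 and 1.03 for A_44_P375502. It was -1.38 and 1.45 for A_64_P013569 and -1.35 and 0.84 for A_44_P398529. The bright probe A_42_P687133, well above background on all 9 arrays, had -1.42 and 0.61. Among those with the largest differences between days, it was -0.87 and 0.87 for A_44_P371172, -0.75 and 0.90 for A_44_P224453, and -0.40 and 1.84 for A_44_P422523. The values were -0.47 and 0.85 for A_64_P104743, -0.42 and 0.80 for A_44_P259516, -0.30 and 0.82 for A_42_P589025 and -0.22 and 0.81 for A_44_P113691. None of these 7 was well above background on any earlier array, so the earlier direction is that of unmeasured signals. On CA replicates 3, 4 and 5 and sham replicate 1, A_44_P113691 had -4.24, -5.12, -5.67 and -5.82. A_44_P259516 had nearly the same values, -4.22, -5.14, -5.70 and -5.82. Where earlier signals lay at such levels, a lower CA level on the later day was enough to be counted.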

How the results depend on the processing

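The set of 1403 members held 2607 probes with a limit of 2, 793 with a limit of 4, 194 with detection asked of all 9 arrays, 365 with normexp, 773 with signals held at the detection limit and 10 in the deposited table, of which 0 were shared with the main set. Leaving out 1 array at a time gave 1312 to 1651. No alternative that was run called a member higher after CA, and members called lower were 0 except 3 with normexp and 0 to 2 with 1 array left out (2 without CA replicate 2). Calls over all tested probes, 5 in the main test, were 0 without a filter, 12 with quantile normalisation, 38 with normexp, 10 in the deposited table, 3 with all 9 arrays and scan day as a term, 0 with array weights, and 0 to 33 with 1 array left out (33 without CA replicate 2, 0 without each of the other later arrays). With scan day and the replicate block, the calls over all probes were 0 and the members' median CA minus sham was 0.128. With scan day alone the median was 0.0545, and leaving out 1 array gave -0.234 to -0.0303. The deviations of CA replicate 2 and sham replicate 2 correlated at 0.103. A_64_P052795 changed sign to 0.0849 with scan day as a term and to 0.238 with the replicate block. Leaving out 1 later array, chosen after the data were seen, gave medians of 0.31 to 1.50 for the chromosome 19 family with the most members and 0.08 to 1.50 for the family of 13 probes. Causes were not tested. The alternatives for protein matching were not run. Where no earlier array was above background, the size of a difference between days is limited by dim signals, and only the value at the detection limit is a bound.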
